A study of Mus musculus with 12 samples.

Results

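The hippocampus of mice carrying a mutated human NCSTN gene was compared directly with the hippocampus of mice carrying the wild-type human MAPT gene, with 1 array each out of the 12 arrays of the series. The promoter driving either transgene was not given in the sources used here. The NCSTN animals (line KNL-HYD-TG0610) were 10 months old and the MAPT animals (line KNL-HYD-TG0601) were 12 months old, both labelled as strain C57BL/6, both housed singly and fasted overnight before the tissue was taken. Each array carried total RNA pooled from 3 animals and was a one-colour Agilent mouse 44K array. The members of the comparison were the 15652 of 20886 named genes whose probes were well above background on both arrays, and the values were log2 signals after quantile normalization over the 12 arrays. Of these genes, 4183 were read by 2 or more probes and 11469 by a single probe. The remaining arrays were the hippocampus of 6-month-old 5xFAD mice, the prefrontal cortex of C57BL/6 mice aged 1.5, 4, 17, and 22 months, and the hippocampus of ICR mice. The ICR mice, an outbred stock, were 7 weeks old and were given Aβ (5 or 10 µM), streptozotocin (2.5 or 3 mg/kg), or scopolamine (1 mg/kg). These arrays are used below only to place a value, and their ages differ from those of the 2 models.

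Nicastrin, the product of NCSTN, is a subunit of γ-secretase, the membrane protease that releases amyloid-β from its precursor and also cleaves Notch receptors. Tau, the product of MAPT, binds and stabilizes axonal microtubules and forms neurofibrillary tangles in Alzheimer's disease when it is highly phosphorylated. A hippocampal RNA pool holds pyramidal and granule neurons together with interneurons, astrocytes, oligodendrocytes, microglia, and vessels, so that fewer cells of a type and less RNA per cell cannot be told apart in any value below. With 1 array per model there was no spread between animals and no test, and age and transgene cannot be told apart.

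The signal was of similar quality on both arrays: 69.7% of probes on the NCSTN array and 72.3% on the MAPT array were well above background, with 137 and 175 outlier spots among 43020 and no saturated spot. The regional label was checked against marker lists. Above all 4 cortex arrays on both arrays were 7 of 9 CA1, 7 of 12 CA2 and CA3, and 6 of 13 dentate gyrus genes. Below them were 6 of 12 genes of cortical layers. Going the other way, 2 genes of each hippocampal list were below all cortex arrays, and 2 genes of cortical layers were above them. The sex given by the methods, male, was not borne out. Xist, the transcript of the inactive X chromosome, had a log2 signal of 9.19 on the NCSTN array and 9.44 on the MAPT array, and Ddx3y, Eif2s3y, Kdm5d, and Uty of the Y chromosome were not well above background on either. The mismatch was shared by both arrays, so it did not separate the 2 models. It was also found on 5xFAD, with Xist at 9.59. Xist was between 2.20 and 2.26 on the cortex arrays and between 1.92 and 2.70 on the ICR arrays. Ddx3y was between 10.36 and 10.90 on the cortex and ICR arrays. Every value placed against the cortex or ICR arrays below is therefore also set across this difference in sex-linked genes.

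The models differed in a small group of genes. Of the 15652 genes, 248 were at least 2-fold apart (1.58% of all), of which 173 were higher on the NCSTN array (1.11%) and 75 were lower (0.479%), whereas 76.7% lay within 1.2-fold and 94.1% within 1.5-fold. The split depended on the scaling: when each array was scaled to its 75th percentile, 113 genes were higher and 134 were lower, so the share of higher genes was 69.8% with quantile normalization and 45.7% with the other scaling. The median log2 ratio of all genes was 0.02 (NCSTN minus MAPT, here and below), its SD over genes was 0.32, and the correlation of the log2 signals across genes, which are not independent replicates, was 0.994. The share past 2-fold was 1.24% to 2.24% over the 6 pairs of cortex arrays, 1.31% to 5.00% over the 10 pairs of ICR arrays, and 10.6% and 10.7% between 5xFAD and the MAPT and NCSTN arrays, so the NCSTN and MAPT pair lay inside the first 2 ranges.

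**Figure D1:**
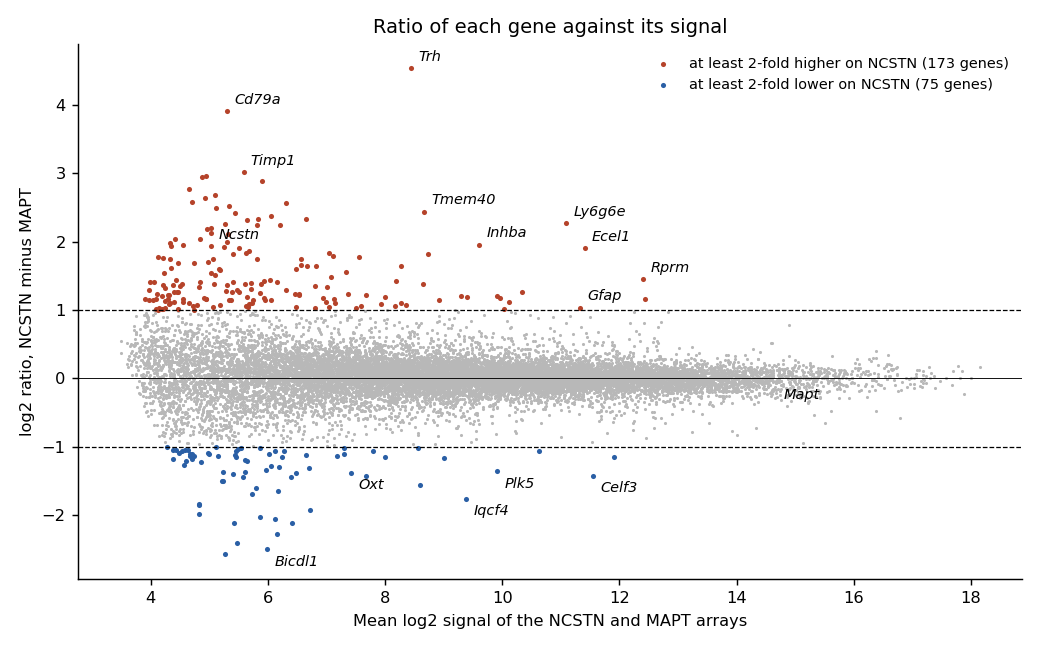
Each point is 1 of 15652 genes, with the mean log2 signal of the NCSTN and MAPT arrays on the horizontal axis and the log2 ratio, NCSTN minus MAPT, on the vertical axis; dashed lines mark 2-fold. The 173 higher genes (red) and 75 lower genes (blue) crowd the dim left side, whereas Trh, Ly6g6e, Ecel1, Rprm, and Celf3 stand apart at brighter signals.

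Most of the 2-fold genes were dim. Among 1155 genes with a mean log2 signal under 5, 7.19% were at least 2-fold apart, compared with 0.512% of 3905 genes between 8 and 10 and 0.0780% of 2565 genes at 12 or more. The technical spread followed the same order: over probes printed on 5 or more spots, the median SD of the log2 ratio between spots was 0.24 under 5 and 0.04 at 12 or more. Of the 248 genes, 230 rested on a single probe. A gene was therefore read with more weight where several probes moved to the same side or where its signal was bright. These criteria left 15 genes of several probes (0.359% of 4183), 14 of them higher and 1 lower, and 31 bright genes with a mean log2 signal of 8 or more (0.308% of 10062), 23 of them higher and 8 lower.

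**Figure D2:**
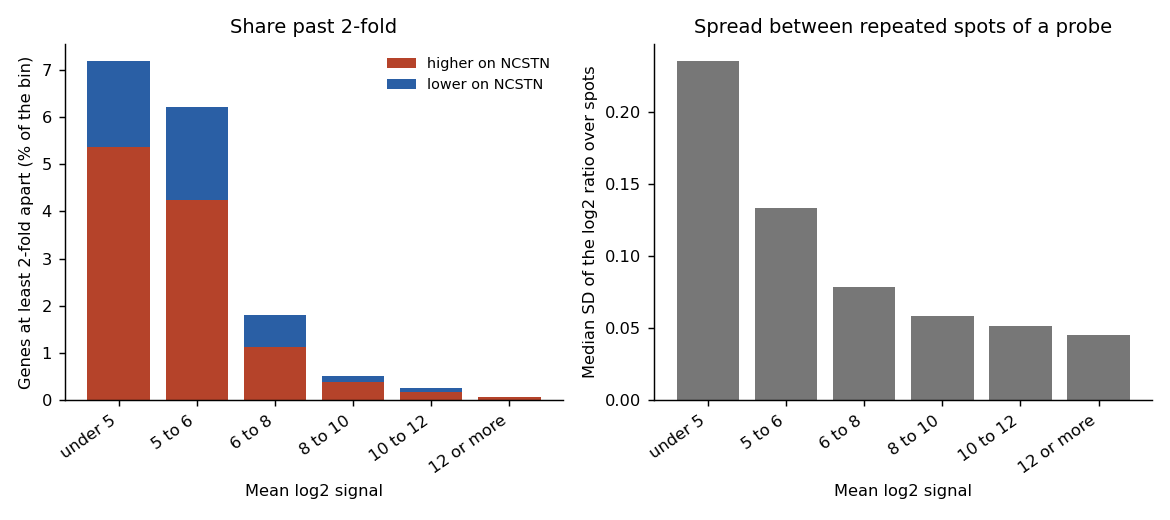
Left, the percentage of genes at least 2-fold apart in 6 bins of mean log2 signal, divided into higher (red) and lower (blue) on the NCSTN array; right, the median SD of the log2 ratio over repeated spots of a probe in the same bins. Both fall from the dimmest bin (7.19% and 0.24) to the brightest (0.0780% and 0.04).

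The transgenes themselves were examined first. The probe of mouse Ncstn was dim, with a log2 signal of 6.00 on the NCSTN array, 4.06 on the MAPT array, and 4.18 on the 5xFAD array, a ratio of 1.94 that dropped to 0.54 with normexp background correction. The NCSTN array ranked second of 12 for this probe, because an ICR array reached 6.28, so the signal was within the range of arrays without the transgene. The MAPT array was the lowest of the 12. Mapt was bright and flat: its 3 probes gave 14.64 on the NCSTN array and 14.71 on the MAPT array, a ratio of -0.07 ± 0.05 (SD, 3 probes), and the other arrays lay between 14.37 and 14.80. The ratio of Mapt turned to 0.08 at its highest among the alternatives. Whether these mouse probes bind the human transcripts was not tested, so neither value measures the transgene.

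Among the other γ-secretase subunits, Aph1a had a ratio of -0.30 with its 2 probes at -0.75 and 0.16, Psen2 a ratio of -0.13, Aph1b -0.03, and Psenen 0.01. The median of the 5 subunits measured was -0.03, whereas their mean was 0.30 through Ncstn alone. Of all genes, 1.58% passed 2-fold and 76.7% were within 1.2-fold, against which the next lists are to be read. None of the 13 genes of the APP family and other secretases passed 2-fold, with App at -0.09 and Bace2 at 0.34. For tau, the 16 tau and microtubule proteins ranged from -0.21 for Map7 to 0.30 for Tuba1a, the 25 tau kinases and phosphatases ranged from -0.18 for Ppp3ca, a catalytic subunit of calcineurin, to 0.31 for Mark1, a kinase of microtubule-associated proteins, and none passed 2-fold. Among 16 genes of the Notch receptors, which γ-secretase cleaves, and of their ligands and targets, 11 were above 0 (68.8%), beside 55.3% of all genes. The median was 0.25, but it was 0.15 with scaling to the 75th percentile and 0.10 with normexp correction, and the mean was 0.11. Notch1 was the lowest at -0.89 (9.10 on the NCSTN array and 9.99 on the MAPT array), and the targets Hes5 (0.26), Hes1 (0.35), and Hey1 (0.36) were above 0.

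Among genes read by several probes, 8 had every probe at least 2-fold higher on the NCSTN array, whereas none had every probe at least 2-fold lower. Tmem40, a transmembrane protein, had a log2 signal of 9.89 on the NCSTN array and 7.45 on the MAPT array, a ratio of 2.44 ± 0.10 (SD, 2 probes). The NCSTN value was inside the cortex range (9.25 to 10.33). The MAPT value was the lowest of the 12 arrays by a small margin, close to the lowest ICR array (7.46) and to 5xFAD (7.67). Dct, an enzyme of melanin synthesis, was measured at 7.82 and 5.49, a ratio of 2.33 ± 0.13, and here too the MAPT array was below all other arrays. Ccn4, a secreted protein of the Wnt pathway, was higher by 1.92 ± 0.24, with the MAPT array at 4.29 and the ICR arrays between 3.92 and 5.33.

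Trib2, a pseudokinase, had a signal of 8.44 on the NCSTN array, above the 11 other arrays, and 6.66 on the MAPT array (ratio 1.78 ± 0.52). The same pattern was found for Cd1d1, which presents lipid antigens to natural killer T cells, with 6.68 and 4.94 (ratio 1.74 ± 0.17) and no other array above 6.15. Retn, the adipokine resistin, had a ratio of 1.33 ± 0.11, and its NCSTN value of 7.68 was next to that of 5xFAD, 7.63. Clec18a, a C-type lectin, differed by 1.42 ± 0.07 and Acvr1c, the type I receptor ALK7 for ligands of the activin and nodal family, by 1.27 ± 0.05. For Acvr1c the NCSTN value of 10.98 was above all other arrays and the MAPT value of 9.71 was at the low end of the ICR arrays (9.70 to 10.13). Over the alternatives, the lowest ratios were 0.58 for Ccn4, 0.79 for Cd1d1, 0.89 for Retn, and 0.90 for Trib2, all under 2-fold. Tmem40, Dct, Clec18a, and Acvr1c stayed at or past 2-fold.

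Beyond these 8, 7 genes were named after their values were seen because their probes lay on the same side with a mean past 2-fold. Gfap, the intermediate filament of astrocytes, had probe ratios between 0.95 and 1.08 (SD 0.07), whereas those of Fam163b were at 0.89 and 1.46 (SD 0.40), beside a median SD over probes of 0.11 for all genes of several probes. Mki67, a marker of dividing cells, had probes at 0.90 and 1.95. Tex38, Suco, and Usp15 passed 2-fold through 1 probe alone, since their lower probes were at 0.32, 0.07, and 0.25. The only gene lower was Cr2, the complement receptor of B cells and follicular dendritic cells, at -1.06 ± 0.57. Zdhhc5, also past 2-fold on average (1.15), had probes at -0.01 and 2.31 and is not among these genes. Its mean alone places it among the 23 bright genes that were higher, although its probes disagree.

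**Figure D3:**
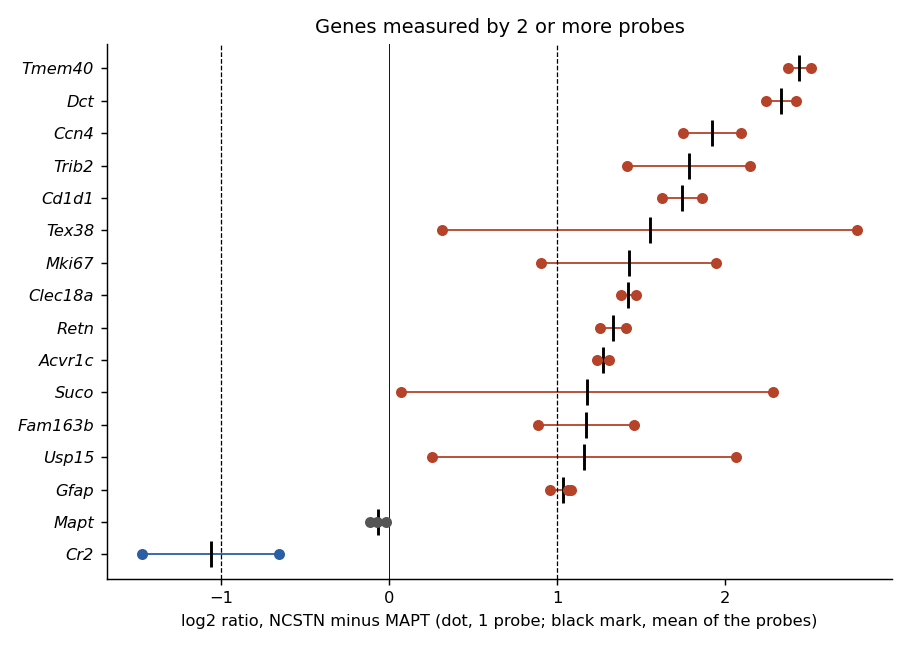
Log2 ratios, NCSTN minus MAPT, of single probes (dots) and their mean (black marks) for the 15 genes of 2 or more probes that passed 2-fold with all probes on the same side, and for Mapt. Dots of Tmem40, Clec18a, Acvr1c, and Gfap lie close together, dots of Tex38, Suco, and Usp15 lie far apart, and those of Mapt lie between -0.11 and -0.02.

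Trh, the precursor of thyrotropin-releasing hormone, had the largest ratio among the genes above background on both arrays. Its signal was 10.72 on the NCSTN array and 6.18 on the MAPT array, a ratio of 4.54 (23.3-fold), and the 10 other arrays lay between 4.96 and 7.74. The NCSTN array alone stood apart, whereas the MAPT array was within the range of the others. Across the alternatives in which Trh had a value, the ratio ranged from 3.06 to 4.54. The gene was read by 1 probe on 1 spot. The 250 bases before its annotated start are shown because they hold the element TGACCTCA (in capitals), a known binding site for CREB in this promoter. The element starts 57 bases before the transcription start and occurs on either strand in 1.94% of 32851 mouse promoter windows of this length. The sequence is chr6:92244651-92244900 (minus strand) of GRCm38.p6, from RefSeq, written 5′ to 3′ on the strand of the gene.
Trh: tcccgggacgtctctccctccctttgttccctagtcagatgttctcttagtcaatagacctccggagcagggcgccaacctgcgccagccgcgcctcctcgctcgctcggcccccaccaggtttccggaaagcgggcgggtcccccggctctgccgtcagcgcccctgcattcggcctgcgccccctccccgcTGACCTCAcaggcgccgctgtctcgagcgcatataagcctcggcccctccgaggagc

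The other single-probe genes at the top were dim on the MAPT array. Cd79a, part of the B-cell receptor, was at 7.26 and 3.35, and the 10 remaining arrays were at 4.55 or less. Timp1, an inhibitor of metalloproteinases, was at 7.09 and 4.07 (ratio 3.02), and the remaining arrays spread over both values, from 6.32 to 7.12 in the cortex and from 4.26 to 7.52 in the ICR hippocampus, with 5xFAD at 8.63. Dnaaf6b (2.97) and Tmco5b (2.95) followed. At the other end, the 5 lowest were H2al1m (-2.58), a histone variant of spermatids, Bicdl1 (-2.51), a dynein adaptor, Usp43 (-2.41), a deubiquitinase, Dlx4 (-2.28), a homeobox factor, and Gsdmc (-2.12), a gasdermin. All 5 had signals under 7.5 on both arrays, where ratios ran from -0.90 to 1.38 for genes with a mean of 5 to 6 and from -0.62 to 0.75 for those of 6 to 8 once the outermost 2.5% at each end were set aside.

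The bright genes below were chosen after their values were seen. Inhba, the βA subunit of activin, was at 10.58 on the NCSTN array and 8.63 on the MAPT array, a ratio of 1.96 (3.89-fold). The value of the NCSTN array was within the cortex range (10.02 to 10.82), whereas 5xFAD (9.22) and the ICR arrays (8.78 to 9.49) were nearer to MAPT. The MAPT array was below all other arrays. Acvr1c, described above, was also higher on the NCSTN array, and a link between these genes was not tested. Ecel1, a neuronal endopeptidase, was at 12.36 and 10.45 (ratio 1.91), and Ly6g6e, a membrane protein of the Ly6 family, at 12.23 and 9.96 (ratio 2.27). For these 2 genes no other array reached the NCSTN value, since the next highest were 11.23 and 10.12, both on 5xFAD.

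Otos (otospiralin) had 9.64 and 7.82, and its highest value elsewhere was 7.98. Rprm, a p53 target that halts the cell cycle, was at 13.13 and 11.68 (ratio 1.45), but 5xFAD was higher still at 13.60. Others among the bright genes were Fndc9 (1.64), Mfap4, a microfibril protein (1.38), the serine protease Prss23 (1.21), the kinase Mapk12 (1.19), Igfbp6 (1.16), Scube1 (1.12), Smoc1 (1.07), and Col6a1 (1.01). The lowest ratios over the alternatives were 0.74 for Smoc1 and 0.73 for Col6a1, both under 2-fold. For comparison, the ratios of genes between 8 and 10 ran from -0.44 to 0.52 with the outermost 2.5% at each end set aside.

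No list held more than 1 of the 8 bright genes that were lower on the NCSTN array. Celf3, a neuronal splicing factor, was the best measured, because its probe was printed on 10 spots. It was at 10.84 on the NCSTN array and 12.27 on the MAPT array, a ratio of -1.43 with an SD of 0.06 over the spots. The 5xFAD array (12.32) resembled the MAPT array, and the NCSTN value was within the cortex range (10.70 to 11.88). Plk5, a polo-like kinase of the brain, was at 9.23 and 10.59 (ratio -1.36), and the NCSTN array was below all 11 others. Iqcf4 was at 8.50 and 10.26 (ratio -1.76), with the ICR arrays at 4.49 or less. This rested on 1 usable probe, since its other probe was not well above background (2.02 and 1.78, ratio 0.24). At its weakest over the alternatives, the ratio of Iqcf4 was -0.76. Ccdc190 (-1.56), B020031M17Rik (-1.16), Ogn (-1.16), Trpm1 (-1.07), and Tmem114 (-1.02) completed the group. Trpm1, a cation channel of melanocytes and retinal bipolar cells, was read by 1 usable probe of 3, since the other 2 were not well above background on these arrays, and its ratio was -0.33 with no filter on dim probes.

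**Figure D4:**
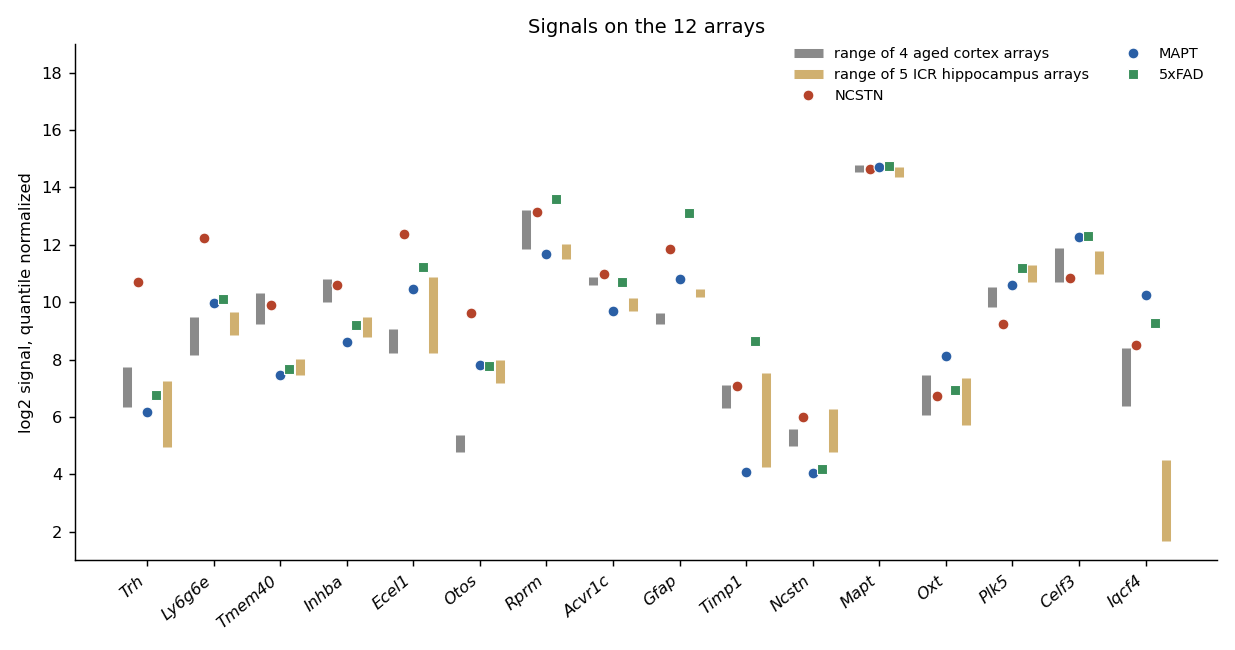
Quantile-normalized log2 signals of 16 genes on the NCSTN (red), MAPT (blue), and 5xFAD (green) arrays, with bars for the range of the 4 cortex arrays (grey) and the 5 ICR hippocampus arrays (tan). The red point is above every other array for Trh, Ly6g6e, Ecel1, Otos, and Acvr1c. The blue point is below every other array for Timp1, Inhba, Ncstn, and, by a small margin, Tmem40, and all arrays coincide for Mapt.

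The remaining arrays were used to place both models for the genes past 2-fold. Of the 173 higher genes, the NCSTN array was above all 11 other arrays in 88 and the MAPT array was below all others in 27. Of the 75 lower genes, the MAPT array was above all others in 41 and the NCSTN array was below all others in 8. The 5xFAD value was nearer to MAPT in 98 of 159 higher genes that were well above background on 5xFAD, and in 18 of 73 lower genes. In these genes an extreme array was more often the brighter one of the pair, in both directions. Genes had to be above background on both arrays, which limits how low the dimmer array can be. A mean log2 signal under 6 was found for 114 of the 173 higher genes and 45 of the 75 lower genes. The counts therefore cannot show which model stood apart. These counts use the values that chose the genes and are a description.

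Astrocyte genes were divided. Of 17 measured, 10 were above 0 with a median of 0.21, beside 55.3% of all genes above 0 and a median of 0.02. The higher genes included Gfap, at 11.84 on the NCSTN array and 10.81 on the MAPT array (ratio 1.03 ± 0.07, SD, 3 probes), Osmr, the oncostatin M receptor, at 0.79, Serpina3n, a protease inhibitor of reactive astrocytes, at 0.69, and Vim, vimentin, at 0.53. For Gfap, the MAPT array was already above the cortex (9.23 to 9.61) and the ICR arrays (10.19 to 10.46), and 5xFAD was higher, at 13.12. The homeostatic genes Aldoc (-0.04), Slc1a3 (-0.01), Sox9 (-0.00), and Glul (-0.33), the glutamine synthetase, were among the members not above 0. They were picked from that side, and homeostatic and reactive genes were not compared as sets. Of the 17 ratios, 12 were inside the range of genes of like signal, with the outermost ratios at each end set aside. Gfap, Osmr, Serpina3n, Vim, and Fgfr3 were outside it. Gfap was at the edge of the threshold and was under 2-fold in 2 of the 8 alternatives.

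The 20 microglial genes ranged from -0.38 for Itgam to 0.21 for C1qa, with a median of 0.02 (-0.01 with scaling to the 75th percentile) and a mean of -0.01. Tyrobp (0.03), Trem2 (-0.07), Cx3cr1 (-0.10), and Aif1 (0.17) were nearly equal on both arrays. Of 16 genes of plaque-associated microglia, 11 were above 0 (68.8%), beside 55.3% of all genes, with a median of 0.13. The transmembrane glycoprotein Gpnmb and the secreted phosphoprotein Spp1 were both at 0.85, and Lpl, lipoprotein lipase, was at -0.66 ± 0.07 (SD, 2 probes). Ccl4, a chemokine, was the only gene past 2-fold (-1.21), at 3.99 and 5.20, against 10.90 on 5xFAD. The complement list had 8 of 12 members above 0 (66.7%), beside 55.3% of all genes, and a median of 0.23. C4b was at 12.84 and 12.31 and C3 at 9.18 and 9.14.

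Of 18 MHC and antigen presentation genes measured, 17 were above 0, beside 55.3% of all genes, and the median was 0.33, the highest among the 37 lists. None reached 2-fold, and 13 of the 18 ratios were inside the range of genes of like signal, without 2.5% at each end. The class II chains led: H2-Ab1 was at 9.73 and 8.77 (ratio 0.97, both probes alike at 0.96 and 0.97), H2-Aa at 6.38 and 5.52 (0.86), H2-Eb1 at 9.63 and 8.92 (0.71), and the invariant chain Cd74 at 9.33 and 8.86 (0.47). The class I genes H2-D1 (0.34), H2-K1 (0.29), and B2m (0.10) differed less, and Tap2, a peptide transporter, was lower (-0.39). The NCSTN array was within the cortex range for 12 of the 18 genes, the named class II chains included, and the MAPT array was below it for 10. With normexp background correction, 13 of 18 were above 0. Promoters of MHC genes share a Y box that binds NF-Y, and CTGATTGG (in capitals), searched on both strands, was found in 7 of 16 windows of these genes (43.8%) and in 3.83% of all windows. The windows of the 2 class II genes that held it are shown, H2-Aa at chr17:34287824-34288073 (minus strand) and H2-Eb1 at chr17:34305617-34305866 (plus strand) of GRCm38.p6, from RefSeq.
H2-Aa: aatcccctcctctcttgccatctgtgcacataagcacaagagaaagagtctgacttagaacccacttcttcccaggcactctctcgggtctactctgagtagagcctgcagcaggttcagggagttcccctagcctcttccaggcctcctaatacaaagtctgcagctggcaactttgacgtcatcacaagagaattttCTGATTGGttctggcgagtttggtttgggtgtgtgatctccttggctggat
H2-Eb1: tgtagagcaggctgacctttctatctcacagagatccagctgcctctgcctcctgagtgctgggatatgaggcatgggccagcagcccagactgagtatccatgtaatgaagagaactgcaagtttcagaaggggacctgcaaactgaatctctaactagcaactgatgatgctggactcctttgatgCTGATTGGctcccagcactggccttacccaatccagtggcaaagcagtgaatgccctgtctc

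Of 26 interferon-responsive genes, 22 were above 0 (84.6%), beside 55.3% of all genes, with a median of 0.21. None passed 2-fold, beside 1.58% of all genes. All 26 ratios were inside the range of genes of like signal, without 2.5% at each end. Ifi44 was at 0.95, Oas1a at 0.59 ± 0.15 (SD, 2 probes), and Irf7 at 0.41, whereas Rsad2 (-0.61) and Cxcl10 (-0.40) were the lowest. With the 75th percentile 18 were above 0 and the median was 0.08. Many of these genes are dim, with Irf7 at 4.52 and 4.11. The core of the interferon-stimulated response element, TTTC, any 2 bases, and TTTC again, on either strand, was in 12 of 26 windows (46.2%) and in 2.98% of all. Oas1a, which makes 2′-5′ oligoadenylates that activate RNase L, holds a pair of overlapping copies (in capitals) at chr5:120907526-120907775 (minus strand) of GRCm38.p6.
Oas1a: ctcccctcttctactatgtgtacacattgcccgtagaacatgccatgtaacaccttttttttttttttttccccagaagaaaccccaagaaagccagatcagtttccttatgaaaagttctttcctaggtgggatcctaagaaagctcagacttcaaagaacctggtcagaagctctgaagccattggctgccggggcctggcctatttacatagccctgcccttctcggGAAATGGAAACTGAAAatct

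All 23 genes of cholesterol synthesis were above 0, beside 55.3% of all genes. No member reached 2-fold, beside 1.58% of all genes. The median was 0.25 and the range was 0.02 to 0.54. Nsdhl had the highest ratio (7.76 and 7.22), and other members were Mvd (0.43), Fdft1, squalene synthase (0.42), and Idi1 (0.37). Hmgcs1, which makes the HMG-CoA that feeds the pathway, was at 14.35 and 14.13 (0.23). Of the 23 ratios, 22 were inside the range of genes of like signal, again without 2.5% at each end, with Mvd outside, so the members lay to the same side by small amounts. This side held for 21 of 23 genes with scaling to the 75th percentile and for 20 of 23 with normexp correction. The NCSTN array was within the cortex range for 17 of the 23 genes, whereas the MAPT array was within it for 8 and below it for 15. Transcription of the pathway is driven by SREBP proteins together with NF-Y, which binds CCAAT. The letters CCAAT, on either strand, were present in 16 of 19 windows of the list (84.2%) and in 33.8% of all windows. The sterol element TCACCCCAC was in 1 window, that of Hmgcs1. The windows of Hmgcs1 at chr13:119690101-119690350 (plus strand) and Idi1 at chr13:8885356-8885605 (plus strand) of GRCm38.p6 are printed with CCAAT, its reverse complement, and the sterol element in capitals.
Hmgcs1: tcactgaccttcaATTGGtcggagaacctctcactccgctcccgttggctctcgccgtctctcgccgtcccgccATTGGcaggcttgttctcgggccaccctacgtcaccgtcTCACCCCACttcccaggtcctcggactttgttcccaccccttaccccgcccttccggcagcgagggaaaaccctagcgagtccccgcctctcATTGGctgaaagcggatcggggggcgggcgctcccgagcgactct
Idi1: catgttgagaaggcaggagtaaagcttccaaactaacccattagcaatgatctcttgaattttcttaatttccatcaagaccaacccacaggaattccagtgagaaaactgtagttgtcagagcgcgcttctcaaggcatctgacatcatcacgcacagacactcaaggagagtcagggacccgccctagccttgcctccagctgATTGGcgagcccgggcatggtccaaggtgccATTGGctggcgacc

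Oligodendrocyte genes lay on the opposite side. Only 3 of 20 were above 0 (15%), beside 55.3% of all genes, and the median was -0.18. The lowest were Ermn (-0.47, with its 2 probes at -1.01 and 0.06), Cnp (-0.37), Cldn11 (-0.35), and Mobp (-0.34, 3 probes between -0.52 and -0.20), all proteins of the myelin sheath or of the cells that make it. Mbp, myelin basic protein, was level at 11.11 on both arrays, and the lineage factor Olig2 was at 0.26. The largest value, 0.89 for Myrf, came from a signal of 4.39 and 3.49. None passed 2-fold.

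Transcripts of red blood cells, which reach a tissue sample with residual blood, were lower for all 6 members, with a median of -0.54. Of all genes, 55.3% were above 0. Hbb-bt was at 13.97 on the NCSTN array and 14.70 on the MAPT array (-0.73), Hba-a1 at 15.19 and 15.84 (-0.65), and Alas2, the first enzyme of heme synthesis in red cells, at 9.14 and 9.72 (-0.58). The MAPT array was within the cortex range for all 6 and the NCSTN array for 1. The globin probes come from near-identical genes and may share transcripts. How far blood accounts for other differences was not tested.

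Clock genes lay on both sides of 0, and none passed 2-fold, beside 1.58% of all genes. Dbp, a transcription factor with a strong daily rhythm, was at 12.84 and 13.64 (-0.79, 2 probes at -0.81 and -0.78). Ciart (-0.69), Hlf (-0.62), Nr1d2 (-0.55), Per3 (-0.53), Per2 (-0.39), and Per1 (-0.37) were below 0 too, whereas Cry1 (0.58), Nfil3 (0.30), Clock (0.15), and Arntl (0.11) were on the other side. In all, 7 of 18 were above 0 (38.9%), beside 55.3% of all genes, and the median was -0.12. The hour at which tissue was taken was not given in the sources used here, so its part was not tested. The E box CACGTG, bound by CLOCK and BMAL1, was in 6 of 21 windows of these genes (28.6%) and in 6.02% of all windows. Ciart, a repressor of that pair, is shown with its 3 copies in capitals, at chr3:95882229-95882478 (minus strand) of GRCm38.p6, from RefSeq.
Ciart: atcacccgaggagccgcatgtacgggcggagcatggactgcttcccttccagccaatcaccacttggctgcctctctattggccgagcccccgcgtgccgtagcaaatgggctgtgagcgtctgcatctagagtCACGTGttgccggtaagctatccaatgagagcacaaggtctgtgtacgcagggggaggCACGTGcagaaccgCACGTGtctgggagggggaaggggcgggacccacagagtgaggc

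Several neuronal lists had medians below 0. These were -0.22 for 9 CA1 genes, -0.11 for 12 CA2 and CA3 genes, and -0.03 for 13 dentate gyrus genes (0.06 with normexp correction). They were -0.07 for 22 glutamate receptor genes, -0.09 for 19 genes of the GABA system, and -0.09 for 22 genes of vesicle release. Neuropeptide precursors, described below, had a median of 0.13. Members lay on both sides of 0, beside 55.3% of all genes above it. Above 0 were 3 of 12 CA2 and CA3 genes and 6 of 13 dentate genes. So were 10 of 22 glutamate receptor, 5 of 19 GABA, and 7 of 22 vesicle genes. The highest ratios were 0.58 in the dentate list, 0.55 in the GABA list, and 0.67 in the vesicle list. In the CA1 list 3 of 9 genes were above 0, and 6 of the 9 ratios were inside the range of genes of like signal. Apart from neuropeptides, Plk5, in the dentate list, was the only member past 2-fold, beside 1.58% of all genes. Gria2, an AMPA receptor subunit, was at -0.61, Dlg4, the scaffold PSD-95, at -0.57, and Gabra5, a GABA receptor subunit of the hippocampus, at -0.46. Of 19 immediate early genes, which respond to neuronal activity, 6 were above 0 (31.6%), beside 55.3% of all genes. Fosb was at -0.55, Nr4a2 at -0.50, Fos at 0.07, and Arc at -0.01. The 33 genes of oxidative phosphorylation stayed between -0.16 and 0.18.

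**Figure D5:**
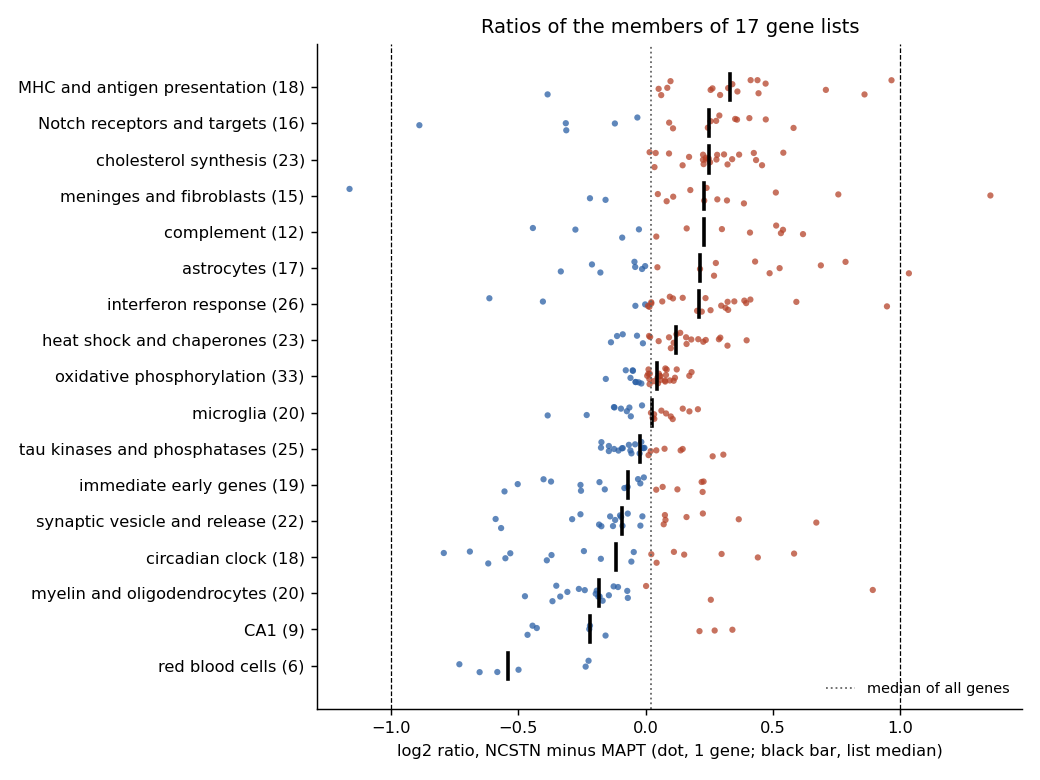
Log2 ratios, NCSTN minus MAPT, of the members (dots) and the median (black mark) of gene lists, with dashed lines at 2-fold. The median is 0.33 for MHC genes, 0.25 for cholesterol synthesis, -0.18 for myelin genes, and -0.54 for red blood cell genes, beside 0.02 for all genes.

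Markers of tissue next to the hippocampus were examined for uneven dissection. The 15 genes of meninges and fibroblasts had 12 above 0 (80%), beside 55.3% of all genes, and a median of 0.23. The collagens Col3a1 (1.35), Col1a1 (0.76), and Col1a2 (0.51) were higher and Ogn, a matrix proteoglycan, was lower (-1.16). The medians were 0.06 for 16 choroid plexus genes, 0.02 for 14 genes of ependyma and motile cilia, 0.02 for 16 endothelial genes, 0.04 for 12 striatal genes, and -0.08 for 12 genes of thalamus and habenula (-0.05, -0.07, and -0.22 for ependyma, striatum, and thalamus with scaling to the 75th percentile, whereas the endothelial median turned to -0.01 with the brightest probe of each gene), and none of these genes passed 2-fold. The means of the ependymal and endothelial genes were on the other side of 0, at -0.02 and -0.01. Among lists of stress, 23 heat shock and chaperone genes had a median of 0.12 and 18 genes of the glucocorticoid response a median of -0.16, again with none past 2-fold. The part of adjacent tissue in the matrix genes described above was not tested.

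Peptide hormones spread widely. Of 21 neuropeptide precursors, Trh was the only one at least 2-fold higher and Oxt (oxytocin) and Avp (vasopressin) were at least 2-fold lower, with a median of 0.13 over the list. Oxt was at 6.73 on the NCSTN array and 8.12 on the MAPT array (-1.39), and Avp at 6.60 and 7.74 (-1.14). For both genes the MAPT array was above all other arrays. Penk, proenkephalin, was at 13.13 and 12.30 (0.82), and Cort, cortistatin of interneurons, at 10.57 and 11.43 (-0.86). Trh, Oxt, and Avp are abundant in the hypothalamus, of which 11 of 13 listed genes were measured, and their median was 0.13, or -0.03 with scaling to the 75th percentile, while the hypothalamic factors Sim1 and Nkx2-1 were above background on neither array.

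Some genes were above background on only 1 of these 2 arrays, so that a lower bound of the fold is all that can be given. It set the bright signal against the higher of the dim signal and the lowest signal well above background on the dim array. On the MAPT array 621 such genes had a value, 95 of them with a bound of at least 2-fold, and on the NCSTN array 221, with 120. Prl, the pituitary hormone prolactin, stood out at 12.35 on the MAPT array and 3.25 on the NCSTN array, at least 426-fold higher on the MAPT array, and no other array exceeded 5.54. Gh, growth hormone, was at 6.71 and 1.70 (at least 8.57-fold) and Cga, the common subunit of the glycoprotein hormones, at 5.50 and 2.41 (at least 3.70-fold).

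Of 14 anterior pituitary genes, Prl, Gh, Cga, and Ghrhr were above background on the MAPT array but not on the NCSTN array. The same held for 623 of all 20886 genes. Ghrhr was dim, at 4.17 on the MAPT array and 3.16 on the NCSTN array, and its bound was only 1.48-fold. Over all 12 arrays, Prl was above background on 4, Gh and Ghrhr on 2 each, and Cga on 1. Gh also reached 6.16 on the cortex array of 22 months. The regulators Pou1f1, Pitx1, and Tbx19 and the hormone subunits Tshb and Fshb were above background on neither array, and the ratios of the 4 genes measured on both were between -0.30 for Lhb and 0.83 for Dlk1. Whether pituitary tissue entered the MAPT pool was not tested. The other genes with the largest bounds on the MAPT array were Pck1, a gluconeogenic enzyme (7.31 against 3.30 on the NCSTN array), Il17f, a cytokine (at least 10.8-fold), and Eras (10.7-fold). On the NCSTN array they were the kallikrein genes Klk1b26, with 2 probes (at least 15.7-fold), and Klk1b5 (13.2-fold), which are close paralogs, together with Arid5b (14.4-fold), Msmp (12.5-fold), and Entpd7 (11.8-fold).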

How the data were processed

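Each RNA, pooled in equal parts from 3 animals by the authors, was hybridised to a one-colour Agilent array. The authors deposited scanner tables of spot intensity, whose processed signal is already background-corrected, and a value table of log2 signals. The 12 arrays were mapped by their labels. Control spots and outlier spots were left out, log2 processed signals were quantile normalized over 12 arrays (Python 3.11.15, numpy 2.4.6, pandas 2.3.3), spots were averaged per probe, and probes per gene. Of 39429 probes, 27508 matched a RefSeq symbol, giving 20886 genes. A probe was used where at least a share of 0.5 of its spots was well above background on both arrays. A gene was called at 2-fold. No test was possible with 1 array per model, whose number limits the precision. Normexp correction used limma 3.58.1 (R 4.3.3), with offset 50, on median signals. Median processed signals were 133 (NCSTN) and 157 (MAPT). Counting of calls was checked on simulated data. Named were the 5 largest ratios or bounds in each direction, genes with every probe past 2-fold, and members of 37 lists, with bright genes added after their values were seen. Members and lists were chosen with earlier results of these data known. Promoter windows are the 250 bases before RefSeq starts, and only genes with a window were searched. The other model arrays were used for reference alone. Some named genes are not reported here.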

Additional observations from a re-analysis of the deposited data

How the results depend on the processing

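No paired analysis was possible because each model had 1 array, and for the same reason no replicate could be left out. Scaling to the 75th percentile gave 113 genes higher and 134 lower, 5 multi-probe genes lower, 78 bounds on NCSTN and 152 on MAPT, an interferon median of 0.083, and a reversed hypothalamus median of -0.033 against 0.13. Normexp gave 25 higher and 13 lower, 4 and 0 multi-probe genes, an interferon median of 0.074, and, in an alternative added after seeing the data, 14 bright genes higher against 23. Genes above background on all 12 arrays gave 67 and 31, and 7 and 0 multi-probe genes. No filter on dim probes gave 486 and 378, and 43 and 21. A threshold of 1.5-fold gave 542 and 378, and 74 and 24. A threshold of 3-fold gave 62 and 16, and 5 and 0. The cause of these shifts was not tested, apart from thresholds and filters, which change the genes counted. The deposited value table gave 175 and 76. Of the ratios of named genes under the alternatives, 572 moved little and 78 moved more, and that of Zdhhc5, whose probes disagree, turned to -0.012 with the brightest probe. Of the 248 genes past 2-fold, 83 had a mean log2 signal under 5, where the median SD between repeated spots was 0.24.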
